A study of Mus musculus with 6 samples.

Results

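The kallikrein-related peptidases of the epidermis and the inhibitor families that face them were followed in RNA-seq libraries of tick-bitten mouse ear skin. Members were all genes of the deposited table whose symbol is Klk, Spink, Serpinb or Wfdc followed by a digit, a rule that used no measured value. It gave 40 of 15667 genes: 10 Klk, 3 Spink, 19 Serpinb and 8 Wfdc genes. The annotation names 95 mouse genes in these families, and the other members of the families were not analysed here. A mean of at least 1 CPM (a gene's count divided by the total of its library and scaled to counts per 1000000) was reached by 34 members, namely 8 Klk, 2 Spink, 16 Serpinb and 8 Wfdc genes, and only these were tested. Klk12, Klk14, Spink12, Serpinb6b, Serpinb6e and Serpinb9b lay below it.

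All 6 libraries came from the ears of young adult female mice on which Ixodes scapularis nymphs had fed, with each library made from a punch of the bite site. The 3 WT mice (Adipo+/+) carried an intact adiponectin gene, and the 3 KO mice (Adipo-/-) were littermates homozygous for the germline Adipoq tm1Chan null allele on a mixed B6 and 129 background. The allele is carried in the germline, so adiponectin is missing from the whole KO mouse, and local and systemic loss of the hormone cannot be told apart. Unbitten skin was not analysed here.

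Kallikreins are secreted serine proteases made in the upper living layers of the epidermis. In the horny layer they cut the desmosome proteins that hold dead cells together, which lets the surface be shed, and some of them activate the receptor PAR2 and process antimicrobial peptides and cytokines. Their best known inhibitor is LEKTI, the Spink5 product, whose loss causes Netherton syndrome. Serpinb genes encode serpins that stay mostly inside cells and act on serine or cysteine proteases, and Wfdc genes encode small secreted proteins with a WAP domain, several of which inhibit elastase-like proteases or bacteria.

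The implied depth was 3403705 to 6591509 reads a library, at which 3 reads corresponded to between 0.455 and 0.881 CPM. Adipoq, the targeted gene, was at 30.5, 63.7 and 49.6 CPM in WT replicates 1, 2 and 3 and had 0, 2 and 0 reads in the KO libraries. The KO to WT ratio of Adipoq reads was 0.00301 (95% exact interval 0.000364 to 0.0109), and its log2 fold change was -6.17 (limma, adjusted p = 0.00322). Epidermis was present in every punch, since all 7 basal and all 10 suprabasal keratinocyte markers of the lists used had reads in all 6 libraries. The libraries differed in other skin compartments. All 10 adipocyte and all 10 skeletal muscle genes of the lists used had fold changes below 0 (medians -0.76 and -0.51). So had all 8 sebaceous gland genes (median -0.21). Over the whole table, 8106 of 14306 genes tested were below 0. At an unadjusted p below 0.05 (limma), 4 adipocyte, 2 muscle and 1 of the sebaceous genes were lower, against 1.82% of all genes. The part of these differences in the members' values was not tested. Of 20 hair follicle genes, 13 had no read in WT replicate 1 and 8 had none in WT replicate 2, whereas all 20 had reads in the other 4 libraries. Summed over the list, they reached 15.5, 21.6 and 24530 CPM in WT replicates 1, 2 and 3, and 1938, 9709 and 1005 CPM in KO replicates 1, 2 and 3.

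All 10 Klk members lay in a single tandem cluster on the plus strand of chromosome 7 between 43690418 and 43851181 (mm10), in the order Klk14, Klk13, Klk12, Klk11, Klk10, Klk9, Klk8, Klk7, Klk6, Klk5. The Serpinb members formed a group of 10 on chromosome 1 between 106861175 and 107608978, with Serpinb5 at its start and Serpinb8 at its end, and a group of 9 on chromosome 13 between 32842092 and 34002794. Of the Wfdc members, 4 were on chromosome 2, 3 on chromosome 11 and 1, Wfdc1, on chromosome 8.

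Upstream sequences are shown for members that carry the contrasts described further on. Klk13 and Klk6 were among the Klk genes with the widest spread within genotypes, Klk7 and Klk5 had the least (SD 0.38 each on the log2 scale), and Serpinb2 and Serpinb7 stand for the serpin cluster of chromosome 1. Each is the 250 bases before the RefSeq start (GRCm38.p6, plus strand, 5′ to 3′), and for each the RefSeq start was also the start given in the deposited table. A RefSeq promoter was matched to 32 members, those of the Spink family not among them. Capitals mark matches on either strand to any of 3 motifs, and none of the marked matches overlapped. The AP-1 motif was searched as TGANTCA. For the TATA box the letters were TATAAA, as found a short way before many starts. The KLF-type motif was searched as CCACCC, the core of sites for that family of zinc finger factors.
The Klk13 sequence is chr7:43712317-43712566, Klk6 is chr7:43824294-43824543, Klk7 is chr7:43811044-43811293, Serpinb2 is chr1:107511173-107511422 and Serpinb7 is chr1:107422439-107422688.
Klk13 promoter: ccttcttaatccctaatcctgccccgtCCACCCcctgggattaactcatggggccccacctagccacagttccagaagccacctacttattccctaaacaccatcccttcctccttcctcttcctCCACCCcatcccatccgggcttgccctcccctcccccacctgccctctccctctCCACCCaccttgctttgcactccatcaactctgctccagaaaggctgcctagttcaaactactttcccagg
Klk6 promoter: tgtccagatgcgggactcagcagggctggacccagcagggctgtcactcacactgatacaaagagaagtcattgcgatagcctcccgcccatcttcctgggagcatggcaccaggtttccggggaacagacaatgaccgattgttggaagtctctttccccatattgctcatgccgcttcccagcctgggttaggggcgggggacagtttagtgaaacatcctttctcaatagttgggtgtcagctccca
Klk7 promoter: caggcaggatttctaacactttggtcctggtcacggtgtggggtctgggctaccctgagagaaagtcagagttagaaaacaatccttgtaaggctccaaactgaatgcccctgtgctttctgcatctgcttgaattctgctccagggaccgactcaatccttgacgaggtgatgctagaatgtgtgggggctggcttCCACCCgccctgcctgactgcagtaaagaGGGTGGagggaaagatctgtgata
Serpinb2 promoter: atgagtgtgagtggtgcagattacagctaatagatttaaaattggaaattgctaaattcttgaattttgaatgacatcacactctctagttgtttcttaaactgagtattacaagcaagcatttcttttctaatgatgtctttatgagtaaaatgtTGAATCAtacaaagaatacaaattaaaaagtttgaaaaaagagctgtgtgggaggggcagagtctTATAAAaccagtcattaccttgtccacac
Serpinb7 promoter: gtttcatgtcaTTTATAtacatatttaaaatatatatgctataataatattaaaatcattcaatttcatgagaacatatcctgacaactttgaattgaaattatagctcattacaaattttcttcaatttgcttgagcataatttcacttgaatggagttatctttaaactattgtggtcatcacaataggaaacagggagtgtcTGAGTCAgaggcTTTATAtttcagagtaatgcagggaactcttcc

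The letters were counted in both families. CCACCC was found in 8 of 10 Klk windows, with 3 matches in Klk13, 2 in Klk7 and 0 in Klk6, and in 10 of 17 Serpinb windows, against 28.1% of 32817 RefSeq promoters. AP-1 letters were found in 0 of 10 Klk windows and in 7 of 17 Serpinb windows, those of Serpinb2, Serpinb5, Serpinb7, Serpinb8, Serpinb10, Serpinb11 and Serpinb12, against 6.75% of all promoters. All of these Serpinb windows belong to the chromosome 1 group, and the Serpinb windows of chromosome 13 held no AP-1 letters. The TATA box letters were in 0 of 10 Klk and 6 of 17 Serpinb windows, against 12.4% of all promoters. In Serpinb2 the AP-1 match began at position -94 and the TATA match at -29 from the start, and in Serpinb7 the AP-1 match began at -45. These matches describe the letters and do not show binding of a factor.

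Per length, the most abundant members were a protease and inhibitors of several kinds. Averaged over the 6 libraries and divided by the exon length of each gene, Klk7 was at 256 CPM per kb (173 to 334 over libraries), Serpinb5 at 177 (148 to 205) and Spink5 at 166 (140 to 201). Their ranges overlapped, so the order of these 3 was not fixed by the data. Serpinb2 followed at 117 CPM per kb, Klk5 at 91.2, Wfdc21 at 80.6, Serpinb6a at 79.9 and Klk6 at 78.8. At the other end, the tested members Serpinb1c, Wfdc3, Wfdc1 and Serpinb9 were at 0.895 to 1.88 CPM per kb. Klk12 had 4 WT and 11 KO reads. Klk14, which together with Klk5 and Klk7 is usually counted among the desquamation proteases, was barely detected, with 8 reads over the WT and 2 over the KO libraries (KO to WT ratio 0.279, 95% exact interval 0.0288 to 1.40).

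Few members differed between KO and WT skin by the tests used. Of the 34 tested members, 0 were lower and 1, Spink7, was higher in KO at an unadjusted p below 0.05, against 1.82% of all 14306 genes tested that were lower and 1.06% that were higher. No member passed an adjusted p of 0.05 (limma, smallest adjusted p over the members 0.998), a level reached by 0.014% of all genes, which was Adipoq and 1 other gene. Spink7 and Wfdc18 reached the mean of 1 CPM only through the KO libraries, where they were higher, and among the other 32 tested members 0 were lower and 0 higher at that level. By fold change 18 members were above and 16 below 0, against 6200 and 8106 of all 14306 genes tested. The median log2 fold change was 0.03 over the members and -0.03 over all genes tested, with family medians of 0.36 for Klk, 0.77 for the 2 tested Spink genes, -0.01 for Serpinb and -0.15 for Wfdc. Groups did not overlap in 1 member, Wfdc1, which was lower in all 3 KO libraries, and in 0 members in the other direction, against 4.89% and 2.95% of all genes.

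**Figure D1:**
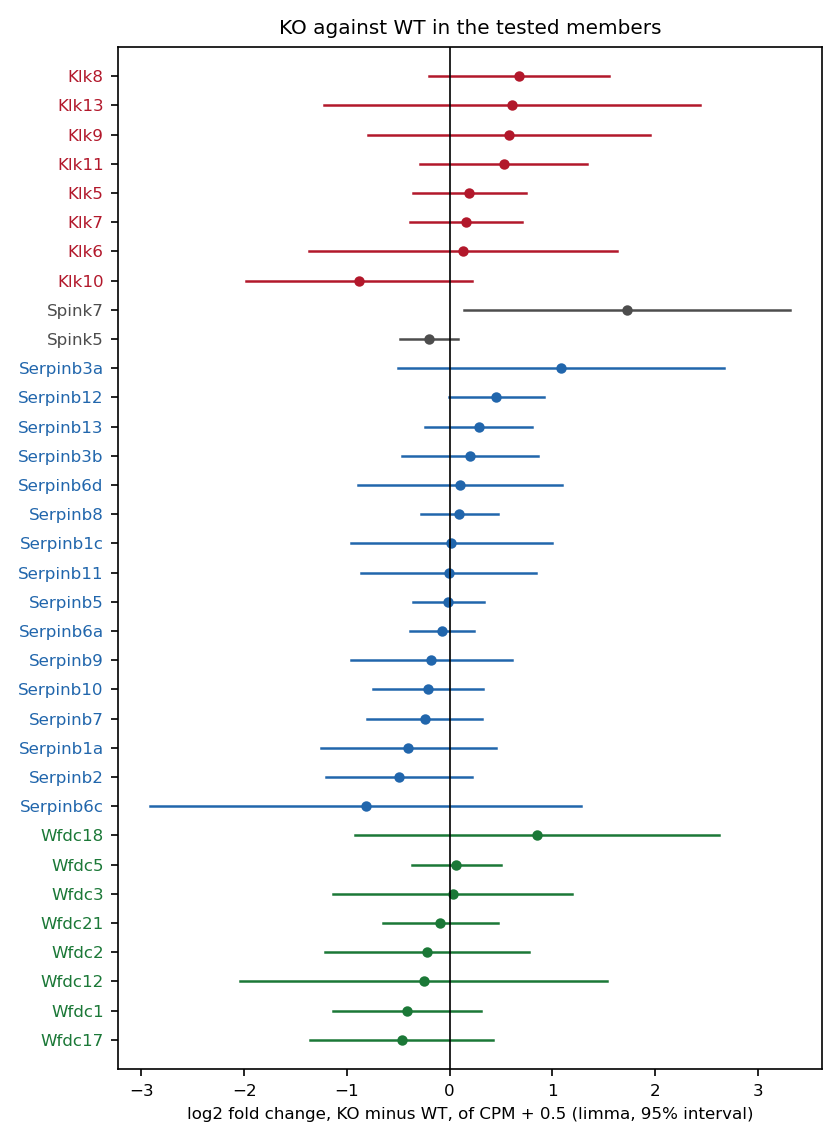
Log2 fold change of KO against WT, on the scale of log2(CPM + 0.5), for the 34 tested members by family, with points for the limma estimate and lines for its 95% interval. Every interval other than that of Spink7 crosses 0, and the widest are those of Serpinb6c, Klk13 and Wfdc12.

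The spread between animals limited what could be seen. The median standard deviation within a genotype was 0.53 on the log2 scale over the members and 0.25 over all genes tested, and at means of 10 CPM or more, where 26 members remained, it was 0.48 against 0.20. It ran from 0.14 for Spink5 to 1.51 for Serpinb6c. Intervals of 16 of the 34 members lay wholly inside a 2-fold change in either direction, whereas 74.5% of all genes had such an interval. For these 16, among them Klk5, Klk7, Spink5, Serpinb5, Serpinb7, Serpinb12 and Wfdc5, a doubling or halving lay outside the 95% interval, and for the other 18 it did not.

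The desquamation proteases Klk5 and Klk7 overlapped between genotypes. Klk7, a chymotrypsin-like enzyme of the horny layer, was at 443, 481 and 422 CPM in WT replicates 1, 2 and 3 and at 632, 328 and 604 CPM in KO replicates 1, 2 and 3. Klk5, a trypsin-like enzyme that can activate Klk7, was at 125, 107 and 81.8 CPM in WT and at 133, 83.2 and 148 CPM in KO replicates in the same order. In both genes KO replicates 1 and 3 were the 2 highest of the 6 libraries, while KO replicate 2 lay at or near the bottom, so the groups overlapped. The log2 fold changes were 0.16 for Klk7 (95% interval -0.39 to 0.71) and 0.19 for Klk5 (95% interval -0.36 to 0.75), neither past an unadjusted p of 0.05 in limma.

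Klk6, Klk9 and Klk13 differed far more between animals than between genotypes. Klk6, a trypsin-like protease, was at 214, 109 and 37.1 CPM in WT replicates 1, 2 and 3 and at 186, 53.2 and 116 CPM in the KO replicates. Klk9 was at 134, 59.6 and 28.5 CPM in WT and at 134, 44.6 and 129 CPM in KO. Klk13 was at 40.7, 19.1 and 3.79 CPM in WT and at 27.9, 10.9 and 37.3 CPM in KO. Within the WT group alone the highest library exceeded the lowest 5.78-fold in Klk6, 4.71-fold in Klk9 and 10.7-fold in Klk13, and the fold changes between genotypes (0.13, 0.58 and 0.61 on the log2 scale) lay well inside this spread. Klk13 was named after its values were seen, as were Klk11, Serpinb1a, Serpinb3b, Serpinb6c and Serpinb6d.

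Klk8 and Klk11 were shaped alike, with KO replicates 1 and 3 on top. Klk8, the protease also called neuropsin, was at 51.3, 45.0 and 25.6 CPM in WT and at 75.4, 35.6 and 91.1 CPM in KO (log2 fold change 0.68, 95% interval -0.20 to 1.55, limma unadjusted p = 0.113). Klk11 was at 50.8, 33.4 and 21.3 CPM in WT and at 64.0, 31.9 and 53.5 CPM in KO (0.53, 95% interval -0.28 to 1.33). KO replicate 2 lay between the WT libraries in both genes.

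Klk10 was the single tested Klk gene with a negative fold change. It was at 191, 55.7 and 62.8 CPM in WT and at 74.9, 37.0 and 38.2 CPM in KO, which put KO replicate 1 above 2 of the WT libraries. The log2 fold change was -0.88 (95% interval -1.98 to 0.22, limma unadjusted p = 0.102), and it ranged from -1.21 without KO replicate 1 to -0.32 without WT replicate 1.

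**Figure D2:**
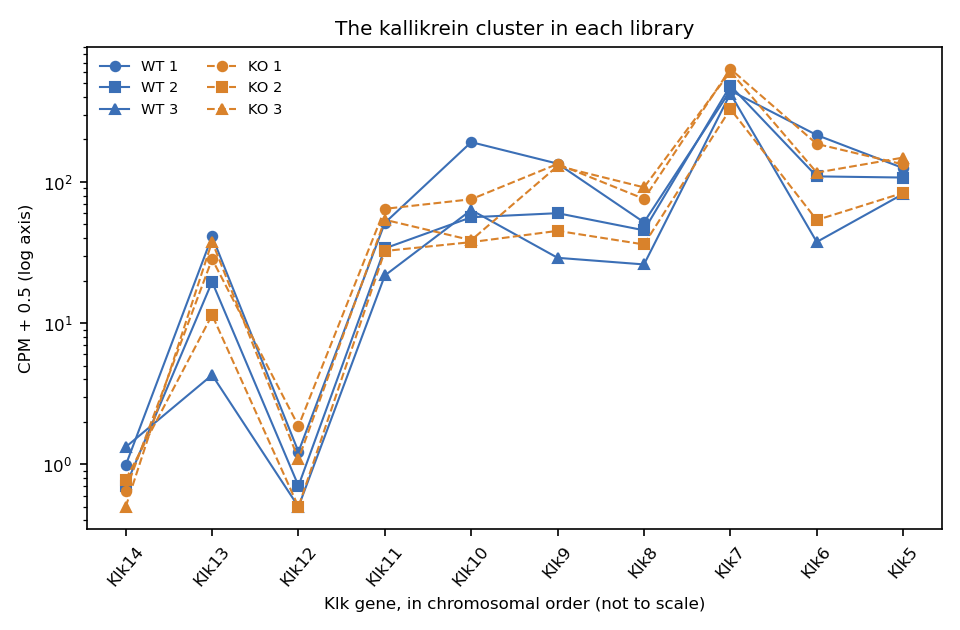
CPM + 0.5 on a log axis for the 10 Klk genes in their order along chromosome 7, with a line for each library (WT solid blue, KO dashed orange, the marker shape giving the replicate). WT replicate 3 and KO replicate 2 run lowest over most of the cluster and the libraries draw together at Klk7, while Klk12 and Klk14 lie near the floor.

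The Klk genes moved together from library to library. KO replicate 2 was the lowest KO library in 8 of 8 tested Klk genes, as it was in 27.6% of all genes tested, and WT replicate 3 was the lowest WT library in 7 of 8, against 36.6% of all genes. WT replicate 1 was the highest WT library in 7 of 8, against 31.9% of all genes. Together the 10 Klk genes took 1252, 910 and 684 CPM in WT replicates 1, 2 and 3, against 1328, 625 and 1218 CPM in the KO replicates. The same libraries were low in part of the serpins, with KO replicate 2 the lowest KO library in 13 of 16 tested Serpinb genes and WT replicate 3 the lowest WT library in 11 of 16. In the Wfdc genes KO replicate 2 was the highest KO library in 5 of 8, as it was in 40.0% of all genes. Members of a family share the libraries and are not independent, so these counts are given as a description.

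**Figure D3:**
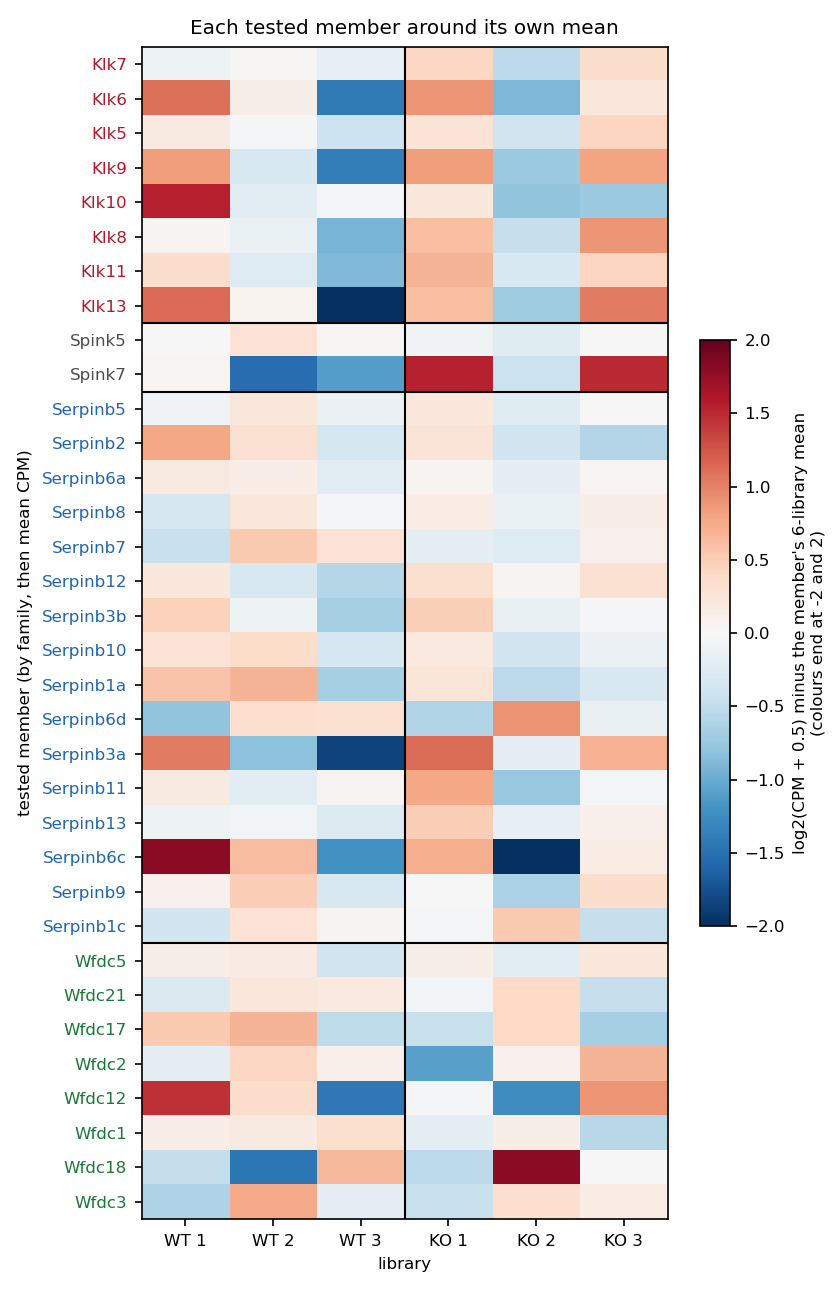
Heat map of log2(CPM + 0.5) of each of the 34 tested members, less its own mean over the 6 libraries, with members in rows by family and libraries in columns. Most Klk rows are blue (low) in WT replicate 3 and KO replicate 2 and red (high) in WT replicate 1 and KO replicate 1, whereas Spink5 and Serpinb5 stay near white in all 6.

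Some markers of other skin states moved with or against the Klk values. The 7 genes of the injury keratinocyte list (Krt6a, Krt6b, Krt16, Sprr1b, Sprr2d, S100a8 and S100a9) summed to 11645, 5261 and 537 CPM in WT replicates 1, 2 and 3 and to 5636, 935 and 3082 CPM in KO replicates 1, 2 and 3. WT replicate 3 and KO replicate 2, the libraries lowest in Klk genes, were lowest here in their groups and highest in the hair follicle list. Of the neutrophil list, 9 of 15 genes were in the table. They summed to 235, 129 and 62.5 CPM in WT replicates 1, 2 and 3 and to 121, 102 and 99.6 CPM in the KO replicates. Their sum was thus lowest in KO replicate 3, only just below KO replicate 2, and the genes were divided. Mmp8, Mmp9, Retnlg, Clec4d and Trem1 were lowest in KO replicate 3 among the KO libraries. Csf3r, Cxcr2 and Fpr1 were lowest in KO replicate 2, as the tested Klk genes were, and Il1r2 was lowest in KO replicate 1. The 10 genes of the suprabasal list, which marks the layers that make kallikreins, summed to 20790, 25432 and 18726 CPM in WT replicates 1, 2 and 3 and to 27822, 21063 and 32799 CPM in the KO replicates, so that their sums too were lowest in WT replicate 3 and KO replicate 2. Their mean log2 level was 9.37 to 9.69 in WT and 9.40 to 9.92 in KO. In bulk skin, fewer cells of a type and less RNA per cell cannot be told apart.

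**Figure D4:**
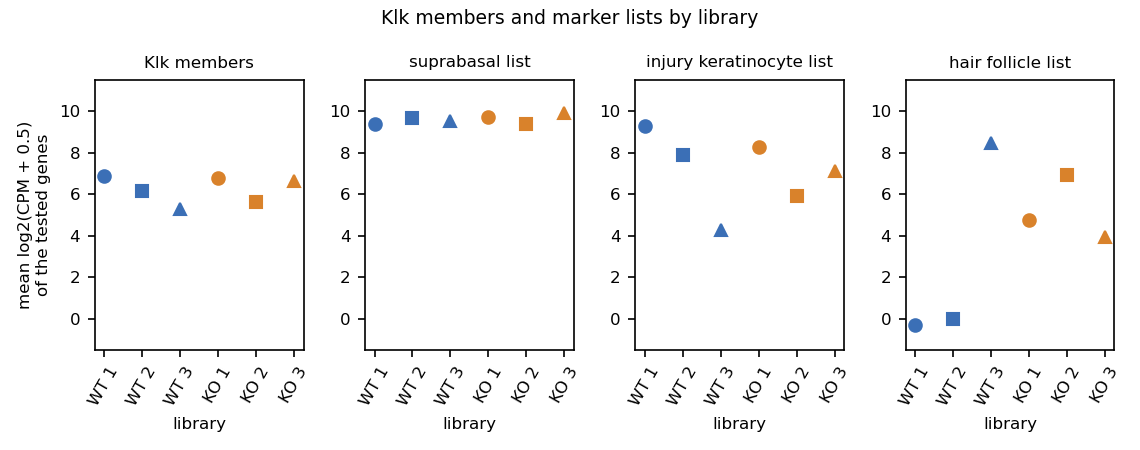
Mean log2(CPM + 0.5) of the tested Klk members and of the suprabasal, injury keratinocyte and hair follicle lists in each library (WT blue, KO orange, the marker shape giving the replicate). The Klk and injury lists are lowest in WT replicate 3 and KO replicate 2 in their groups, where the hair follicle list is highest. The suprabasal list spans 9.37 to 9.92, with WT replicate 1 and KO replicate 2 the lowest of their groups.

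Fits that took these lists into account gave other counts. In the fit with the mean level of the hair follicle list as covariate, 7 members were higher in KO at an unadjusted p below 0.05 (Klk8, Klk9, Klk11, Klk13, Serpinb3a, Serpinb12 and Spink7) and 0 were lower, against 2.12% of all genes higher and 3.98% lower. The log2 fold change of Klk13 was then 1.46 (limma, adjusted p = 0.365) and that of Klk8 was 1.01 (adjusted p = 0.458). With the injury keratinocyte score, chosen after the data were seen, 6 members were higher (Klk8, Klk9, Klk11, Serpinb3a, Serpinb12 and Spink7) and 2 lower (Klk10 and Serpinb2), against 2.01% and 2.92% of all genes. Spink7 reached the filter only through the KO libraries, where it was higher, so its calls are a description. With the suprabasal score as covariate, 0 members were higher and 1 was lower (Spink5), against 0.783% and 1.8% of all genes. The log2 fold changes of Klk7 and Klk6 were then -0.066 and -0.043. No member passed the adjustment in any of these fits. These scores were measured in the same 6 libraries, and their part in the Klk values was not tested further.

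Single libraries also carried weight, and in opposite directions. Without WT replicate 1, 1 member was lower (Serpinb7) and 4 higher (Klk11, Serpinb3a, Serpinb12 and Spink7), against 2.47% of all genes lower and 1.56% higher. Without WT replicate 3, 4 members were lower (Klk10, Serpinb1a, Serpinb2 and Wfdc17) and 0 higher, against 2.77% of all genes lower and 2.2% higher, and the fold change of Klk6 turned from 0.13 to -0.54 and that of Klk13 from 0.61 to -0.30. Without KO replicate 2, 0 were lower and 4 higher (Klk7, Klk8, Klk11 and Spink7), against 2.67% and 1.43% of all genes. Klk7 then had a log2 fold change of 0.46 (limma, unadjusted p = 0.00551, adjusted p = 0.931). Spink7 passed the filter through the KO libraries only, and its calls in these fits are a description.

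LEKTI, the inhibitor of several kallikreins encoded by Spink5, had the smallest spread of all tested members within genotypes, though over all 6 libraries the ranges of Serpinb5 and Serpinb6a were narrower (1.38-fold and 1.30-fold against 1.43-fold). The 3 Spink members lie on chromosome 18. Spink5 was at 783, 960 and 801 CPM in WT replicates 1, 2 and 3 and at 755, 669 and 794 CPM in KO replicates 1, 2 and 3. The KO libraries tended to the lower end, but KO replicate 3 exceeded WT replicate 1, and the log2 fold change was -0.20 (95% interval -0.48 to 0.09, limma unadjusted p = 0.148). The summed level of Klk5, Klk7 and Klk14 for each unit of Spink5 was 0.726, 0.612 and 0.630 in WT and 1.01, 0.616 and 0.948 in KO. KO replicates 1 and 3 thus had the 2 highest ratios and KO replicate 2 lay within the WT range. These ratios compare levels that are not corrected for length and were not tested.

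Spink7, an epithelial Kazal-type inhibitor, was the member that was higher in KO before adjustment, at a level near the floor. It was at 0.968, 0 and 0.165 CPM in WT replicates 1, 2 and 3 and at 3.64, 0.560 and 3.53 CPM in KO replicates 1, 2 and 3. KO replicates 1 and 3 were above every WT library, and KO replicate 2 was below WT replicate 1, so the groups overlapped. The log2 fold change was 1.73 (95% interval 0.14 to 3.31, limma unadjusted p = 0.0367, adjusted p = 0.998). Since the WT mean of 0.378 CPM lay under the filter and the KO mean of 2.58 CPM carried the gene past it, the filter favoured a higher KO value, and this p is given as a description. Summed over libraries, 5 WT and 38 KO reads gave a KO to WT ratio of 8.47 (95% exact interval 3.33 to 27.6), which covers counting error only. Leaving out a library ended the unadjusted call for 4 of the 6 libraries. The log2 fold change was 1.40 without WT replicate 2 and 1.60 without WT replicate 3, and it was 1.39 and 1.41 without KO replicates 1 and 3. Spink12 had 11 reads in each genotype and was not tested.

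**Figure D5:**
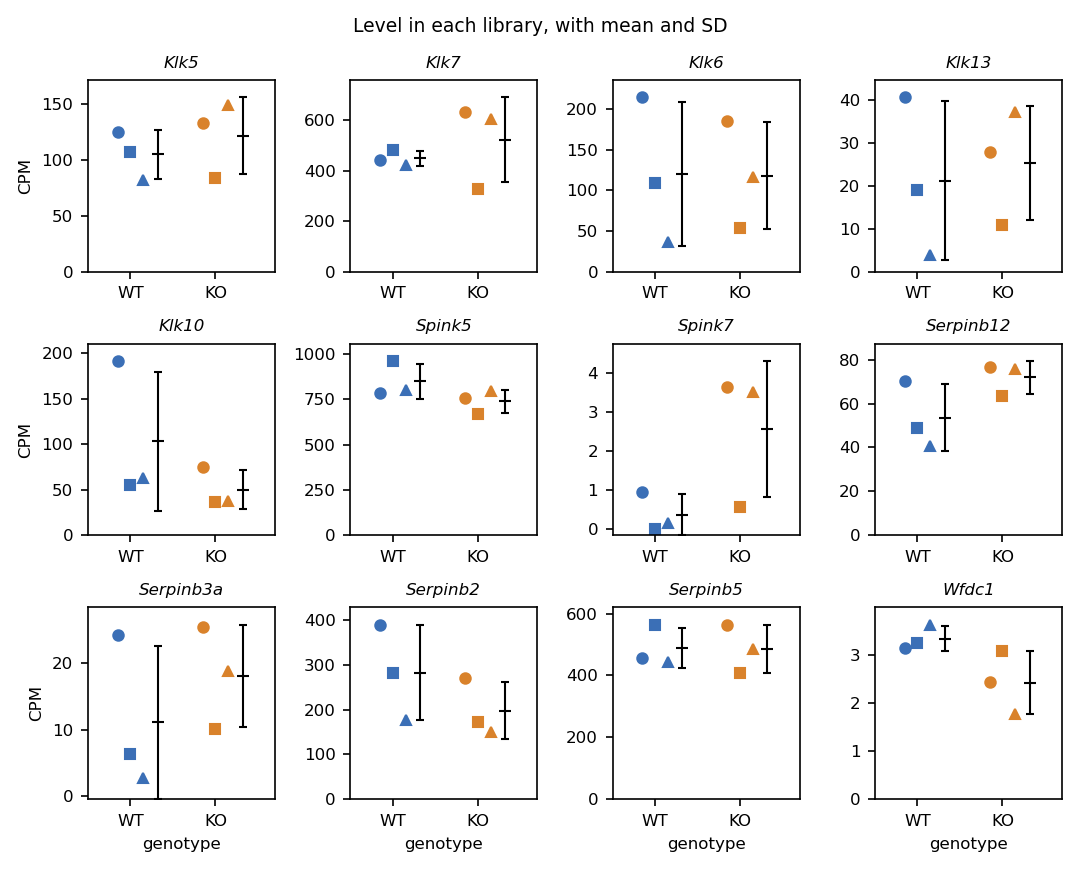
CPM of 12 members in each library (circle, square and triangle for replicates 1, 2 and 3; WT blue, KO orange), with the mean and SD of each genotype (n = 3) in black. The genotypes overlap in every panel other than Wfdc1.

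Serpins of the differentiating epidermis lay on both sides of 0. Serpinb12, an inhibitor of trypsin-like proteases, was at 70.4, 49.0 and 40.9 CPM in WT replicates 1, 2 and 3 and at 76.8, 63.3 and 75.5 CPM in KO replicates 1, 2 and 3. Only WT replicate 1 reached into the KO range, and the log2 fold change was 0.46 (95% interval -0.01 to 0.92, limma unadjusted p = 0.0536). Rescaling by the median of ratios brought its unadjusted p to 0.0497, and without WT replicate 1 the log2 fold change was 0.67 (limma, unadjusted p = 0.00303, adjusted p = 0.954). Serpinb7, whose human counterpart is mutated in a palmoplantar keratosis, was at 68.0, 134 and 114 CPM in WT and at 81.2, 77.6 and 99.3 CPM in KO, with WT replicate 1 below every other library. Its log2 fold change was -0.24 (95% interval -0.80 to 0.32), and without WT replicate 1 it was -0.53 (limma, unadjusted p = 0.00981, adjusted p = 0.954). Serpinb5, also called maspin, was at 458, 563 and 443 CPM in WT and at 561, 407 and 486 CPM in KO, a log2 fold change of -0.01 (95% interval -0.36 to 0.33) whose sign changed with the scaling.

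Serpinb3a and Serpinb3b encode mouse squamous cell carcinoma antigens, which inhibit serine or cysteine proteases. Serpinb3a was at 24.2, 6.31 and 2.80 CPM in WT and at 25.3, 10.1 and 18.8 CPM in KO (log2 fold change 1.08, 95% interval -0.50 to 2.67, limma unadjusted p = 0.153). Without WT replicate 1 it was 1.88 (unadjusted p = 0.00526, adjusted p = 0.954) and without WT replicate 3 it was 0.43. WT replicate 1 was close to the highest KO library, while the other WT libraries were below every KO library. Serpinb3b ranged from 29.5 to 64.6 CPM in WT and from 42.3 to 65.2 CPM in KO. The open reading frames of Serpinb3a and Serpinb3b were 93.0% identical, so the authors' counting could divide reads between them, and their separate values are uncertain.

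Serpinb2 and Serpinb1a, which act on a plasminogen activator and on leukocyte proteases, had fold changes below 0, with overlapping groups. Serpinb2 (plasminogen activator inhibitor type 2), an inhibitor of urokinase, was at 390, 282 and 178 CPM in WT replicates 1, 2 and 3 and at 270, 172 and 150 CPM in KO replicates 1, 2 and 3. KO replicate 1 lay between WT replicates 2 and 3 and the other KO libraries were below all WT libraries, with a log2 fold change of -0.49 (95% interval -1.21 to 0.22, limma unadjusted p = 0.150). It ranged from -0.79 without WT replicate 3 to -0.23 without WT replicate 1. Serpinb1a, an inhibitor of neutrophil elastase and related proteases, was at 43.3, 46.8 and 18.1 CPM in WT and at 34.1, 19.9 and 23.2 CPM in KO (-0.40, and -0.83 without WT replicate 3). Serpinb1c, whose reading frame was 89.8% identical to that of Serpinb1a, had a log2 fold change of 0.02. The 5 tested serpins listed for leukocyte or broad expression were Serpinb1a, Serpinb2, Serpinb6a, Serpinb9 and Serpinb10. Of these 5 had a fold change below 0, as had 8106 of all 14306 genes tested, and those of Serpinb6a and Serpinb9 turned sign when some library was left out. The median of the 5 was -0.21 against -0.03 over all genes, and 0 passed an unadjusted p of 0.05. Among untested genes of this list, Serpinb6b had 7 WT and 15 KO reads and Serpinb9b had 12 and 9. Serpinb6a was at 180, 175 and 138 CPM in WT and at 165, 138 and 164 CPM in KO (-0.07, 95% interval -0.38 to 0.24). It overlaps 1110046J04Rik, Nqo2 and Ripk1 on the opposite strand, and the sources used here do not say whether reads were counted by strand. Serpinb8, an inhibitor of furin, was at 91.7, 136 and 112 CPM in WT and at 129, 105 and 127 CPM in KO (0.10, 95% interval -0.28 to 0.47).

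Serpinb6c and Serpinb6d, which lie on chromosome 13 with Serpinb6e between them, differed in which libraries were high. Serpinb6c was at 19.6, 8.34 and 1.98 CPM in WT replicates 1, 2 and 3 and at 8.95, 0.841 and 5.88 CPM in the KO replicates, a 23.3-fold range with the low values in WT replicate 3 and KO replicate 2. Serpinb6d was at 16.0, 35.2 and 34.6 CPM in WT and at 18.2, 52.4 and 25.3 CPM in KO, with its highest value in KO replicate 2. The groups overlapped in both genes. Their reading frames were 82.4% identical to each other, and that of Serpinb6c was 86.9% identical to Serpinb6a and 87.9% to Serpinb6b. The remaining tested serpins, Serpinb1c, Serpinb9, Serpinb10, Serpinb11 and Serpinb13, had log2 fold changes of -0.21 to 0.28. Serpinb6b, Serpinb6e and Serpinb9b, which were not tested, had 7, 9 and 12 reads over the WT libraries and 15, 3 and 9 over the KO libraries.

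Of the WAP genes, Wfdc1 was the member whose genotypes separated. It was at 3.15, 3.25 and 3.63 CPM in WT and at 2.43, 3.08 and 1.76 CPM in KO, so that the highest KO library was just below the lowest WT library. The log2 fold change was -0.42 (95% interval -1.14 to 0.30, limma unadjusted p = 0.217), from 51 WT and 33 KO reads, whose ratio of 0.721 had a 95% exact interval of 0.451 to 1.14 that includes 1. Wfdc5, the most abundant WAP member in CPM, was at 50.6, 52.7 and 35.9 CPM in WT and at 50.7, 40.1 and 54.1 CPM in KO (0.06, 95% interval -0.37 to 0.50). Wfdc12 was at 19.1, 8.54 and 2.14 CPM in WT and at 6.52, 2.52 and 12.6 CPM in KO, with WT replicate 3 and KO replicate 2 again the lowest of their groups. Its log2 fold change was -0.25 (95% interval -2.04 to 1.54). Wfdc2 ranged from 8.96 to 13.8 CPM in WT and from 4.55 to 16.7 CPM in KO, and Wfdc3 had 17 WT and 13 KO reads.

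Wfdc17, Wfdc18 and Wfdc21, which lie together on chromosome 11 and of which Wfdc17 is known from activated macrophages, had no common direction. Wfdc17 was at 18.6, 20.7 and 8.90 CPM in WT and at 9.25, 17.1 and 7.93 CPM in KO (log2 fold change -0.47, 95% interval -1.36 to 0.43). Wfdc21 was at 27.8, 40.1 and 39.4 CPM in WT and at 32.8, 45.1 and 24.7 CPM in KO (-0.09, 95% interval -0.65 to 0.47). Wfdc18 had 12 WT and 21 KO reads. KO replicate 2 was the highest KO library in all 3 genes, as in 40.0% of all genes, and the reading frames of Wfdc17 and Wfdc18 were 81.8% identical. The 10 macrophage markers of the list used were also highest in that KO library, with sums of 904, 1114 and 663 CPM in WT replicates 1, 2 and 3 and 648, 1103 and 728 CPM in the KO replicates. Their part in the Wfdc values was not tested.

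The wider protease network of the epidermis was read from the same fit. Among 22 tested proteases outside the Klk family, 0 were lower and 1 higher at an unadjusted p below 0.05, against 1.82% and 1.06% of all genes, with a median log2 fold change of 0.03. The higher gene was Asprv1, the aspartic protease that processes profilaggrin, at 856, 1007 and 911 CPM in WT and at 1438, 977 and 1564 CPM in KO (0.49, 95% interval 0.07 to 0.91, limma unadjusted p = 0.0269, adjusted p = 0.998). Its KO replicate 2 lay within the WT range and KO replicates 1 and 3 were the 2 highest libraries, as they were in Klk5 and Klk7. The membrane proteases St14 (matriptase) and Prss8 (prostasin), had log2 fold changes of -0.17 and 0.19, and Casp14, the caspase of cornification, was at 96.6 to 104 CPM in WT and 81.5 to 208 CPM in KO (0.40).

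Inhibitors of other families and kallikrein targets gave no call. Of 16 tested inhibitors outside the member families 0 were lower and 0 higher at an unadjusted p below 0.05 (limma). The shares of all genes were 1.82% and 1.06%. Of these inhibitors 12 had a fold change below 0, as had 8106 of all 14306 genes tested. Spint1, the inhibitor of matriptase, had a log2 fold change of -0.11, Cst6, an epidermal cystatin, -0.26, and Slpi, a WAP-domain inhibitor of elastase, -0.30. Slpi ranged from 1.32 to 49.4 CPM within WT alone. All 7 tested target genes were between -0.09 and 0.21, among them Dsg1a at 0.12 (95% interval -0.29 to 0.54), which encodes a desmoglein cut during shedding, and the PAR2 gene F2rl1 at 0.10 (95% interval -0.22 to 0.41). Flg was not analysed here.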

How the data were processed

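RNA-seq was done on bitten ear skin of 3 WT and 3 KO mice, grouped by the genotype in the labels. Per the submitters' processing notes and the methods, the authors aligned reads to mm10 with STAR 2.7.3a and quantified genes by expectation-maximization in Partek Flow, a way of counting that may split reads between similar genes. The deposited values are CPM: the authors divided counts by the library total and added 0.0001. The sources used here give neither the strand setting nor the model of the authors' comparison. Whether the replicates differ in litter, day or cage is not given either. The p-values set the difference between genotypes against the spread within them. A difference in litter, day or cage between the groups could not be told apart from genotype.

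The 0.0001 was subtracted. The CPM worth 1 read was found from the low values, of which 91.9% to 92.6% of those under 20 reads lay within 0.1 of a whole read, and gave the implied depths. Exact read intervals (95%) cover counting error only. Values were tested as log2(CPM + 0.5), a scale that understates the change of low genes, for 14306 genes, those averaging 1 CPM or more. The test was limma 3.58.1 under R 4.3.3 (eBayes with a trend on lmFit), two-sided, on 6 libraries with no covariate, with Benjamini-Hochberg adjustment over all genes tested. An exact permutation test of 3 against 3 libraries cannot go below p = 0.1, so none was used. The step was tested on simulated counts with the same spread setting for all genes and independent libraries. The members differed in spread and moved together between libraries, so the simulation does not show how the fit behaves for them. No libraries were duplicates (chi-square per degree of freedom 8.70 to 45.1 between pairs), and 0 members had the same values as another gene. Exon lengths and reading frames came from GENCODE and promoters from RefSeq (GRCm38.p6), and frames were aligned with Biopython 1.88.

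Named genes were Adipoq, the 5 members of highest mean CPM per family, members at an unadjusted p below 0.05 or with separate groups, and a set of known epidermal members and network genes, and others are said to be chosen after their values were seen. The members and lists were chosen with earlier results of these data known. Alternatives were other pseudocounts, filters, scalings, a fit without trend, voom on recovered reads, covariates, a replicate block and each library left out. All 6 columns were used.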

Additional observations from a re-analysis of the deposited data

How the results depend on the processing

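No member passed an adjusted p of 0.05 under any of the 19 alternatives. The count of members lower in KO at an unadjusted p below 0.05 went from 0 to 1 with the suprabasal score (Spink5). It was 2 with the injury keratinocyte score and 0 to 4 over the fits that left out a library. The shares of all genes in these fits were 1.8%, 2.92% and 1.03% to 2.77%. The count higher fell to 0 with a filter at 5 CPM (1.1% of all genes), quantile normalization (1.62%) or the suprabasal score (0.783%). It rose from 1 to 2 with median-of-ratios rescaling (1.47%), 7 with the hair follicle score (2.12%) and 6 with the injury score (2.01%). Over the left-out libraries it was 0 to 4 (0.622% to 2.2% of all genes). Members with separate groups were 0 with a filter at 5 CPM (7.64% of all genes) and 2 with quantile normalization (7.81%). Over the left-out libraries they were 1 to 8, against 15% to 20.3% of all genes. The Spink median was 1.29 with a pseudocount of 0.1, 0.055 with no filter, -0.20 with the filter at 5 CPM and 1.34 with voom. Adipoq kept its direction but passed an adjusted p of 0.05 neither with voom (-7.92) nor without WT replicate 2, and ranged from -6.54 to -5.94 over the left-out libraries. The cause of these shifts was not tested.

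Whether the replicate numbers pair the mice is not given. Deviations of same-numbered libraries correlated at 0.376, -0.306 and -0.222, and those of differently numbered libraries at -0.382 to 0.449. With 3 libraries in each group these values cannot decide it. With the replicate block, 2 members were lower (Klk10 and Serpinb2) and 2 higher (Serpinb12 and Spink7) before adjustment, against 2.89% and 1.24% of all genes. Here too Spink7 passed the filter only through the KO libraries.

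Of the 34 tested members, 17 changed sign when some library was left out, and several fold changes that were not near 0 turned as well. Serpinb5 became 0.016 with median-of-ratios rescaling, 0.0021 with quantile normalization and 0.0065 with the total taken without Rn45s. With voom, Slpi became 0.19 and Serpinb6d -0.022. With the hair follicle score, values became 0.061 for Serpinb5, 0.045 for Serpinb6a, 0.52 for Wfdc12, 0.82 for Slpi, 0.020 for Serpinb6c and -0.14 for Serpinb6d. With the suprabasal score they became -0.066 for Klk7, -0.043 for Klk6, -0.042 for Serpinb8, -0.042 for Wfdc5, 0.029 for Wfdc21 and -0.036 for Dsg1a. Among named genes, the ranges over the left-out libraries that crossed 0 were -0.54 to 0.71 for Klk6, -0.0087 to 0.46 for Klk7, -0.30 to 1.33 for Klk13, -0.079 to 0.48 for Serpinb3b, -0.13 to 0.11 for Serpinb5, -0.19 to 0.014 for Serpinb6a, -1.62 to 0.029 for Serpinb6c, -0.32 to 0.43 for Serpinb6d, -0.046 to 0.24 for Serpinb8, -0.61 to 0.27 for Wfdc2, -0.11 to 0.19 for Wfdc5, -1.03 to 0.42 for Wfdc12, -0.31 to 0.12 for Wfdc21, -0.33 to 0.094 for St14, -0.057 to 0.46 for Prss8, -0.27 to 0.12 for Spint1, -1.52 to 0.87 for Slpi, -0.033 to 0.25 for Dsg1a and -0.040 to 0.17 for F2rl1.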

Other observations

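The cysteine protease inhibitors of the stefin group, which are not members, spread across libraries in the way of the most variable Klk genes. Cstdc5 was at 167, 106 and 5.77 CPM in WT replicates 1, 2 and 3 and at 116, 14.0 and 85.8 CPM in KO replicates 1, 2 and 3. Stfa1 was at 45.8, 43.7 and 1.65 CPM in WT and at 25.2, 6.17 and 12.6 CPM in KO. WT replicate 3 and KO replicate 2 were the lowest libraries of their groups in both genes, and the genotypes overlapped. Cystatins of the resting epidermis were steadier, with Cst6 at 216, 247 and 326 CPM in WT and at 221, 205 and 225 CPM in KO. These genes were chosen after their values were seen, other than Cst6.

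Il1b, which encodes a cytokine that proteases can activate, was at 68.0, 11.8 and 1.48 CPM in WT replicates 1, 2 and 3 and at 20.3, 8.69 and 6.76 CPM in KO replicates 1, 2 and 3. It had a log2 fold change of -0.09 (95% interval -2.67 to 2.50, limma unadjusted p = 0.938) and was also chosen after its values were seen.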
